A study of Mus musculus with 8 samples.

Results

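The hypoxia-inducible factor (HIF) pathway was examined at the mRNA level in the epididymal fat pad of the mouse, a visceral white adipose depot. The 10 genes read were picked for their roles, with earlier results of these data known. They are the transcription factor subunits *Hif1a*, *Epas1* and *Arnt*, the prolyl hydroxylases *Egln1*, *Egln2* and *Egln3*, and the HIF targets *Vegfa*, *Pdk1*, *Bnip3* and *Adm*. All 10 were measured, among 18820 named genes on the arrays. The tissue came from 4 male WT mice and 4 male *Sucnr1*-/- mice on a C57BL/6 background, offspring of heterozygous parents. Both groups ate a semi-synthetic low-fat diet (LFD) for 16 weeks from an age of 8 to 10 weeks and were killed at 24 to 26 weeks. The study's paper gives a wider range of ages at the start of its diets. In the *Sucnr1*-/- line a cassette with *lacZ* replaces much of the exon that encodes the succinate receptor SUCNR1, in every tissue of the mouse, so adipocytes are not the only cells to lose it. All 8 mice ate LFD, so obese fat is not part of the comparison, which asks how loss of the receptor bears on gene expression in fat under LFD feeding. Each mouse gave 1 Affymetrix whole-transcript array, with values on a log2 scale, so that a difference of 1 is a doubling.

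HIF is a dimer of an oxygen-regulated α subunit, HIF-1α (*Hif1a*) or HIF-2α (*Epas1*), and a stable partner, ARNT. While oxygen is present, the prolyl hydroxylases mark the α subunit for recognition by the von Hippel–Lindau protein (VHL) and destruction; they use oxygen and 2-oxoglutarate and release succinate, and a build-up of succinate slows them. When hydroxylation fails, the dimer collects in the nucleus and switches on genes for glucose use, vessel growth and the removal of mitochondria, and *Egln3* is itself a target. The α subunits are governed mainly through the stability of the protein, which arrays do not measure, so the targets are the closest view of HIF activity that mRNA offers. In growing fat, where oxygen can become short, HIF-1α has been tied to fibrosis and inflammation.

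The DNA letters that HIF reads are short. Promoters of 300 bases (250 before the start of the transcript and 50 after it) were taken from RefSeq, build GRCm38.p6, and 9 of the 10 genes had an entry, 12 promoters in all. ACGTG, the core of the hypoxia response element, was present on either strand in 6 of these 12 promoters, against 19.6% of all 32851 promoters of the same length. GCGTG, its other common form, was in 8 of the 12, against 32.4%. *Hif1a*, with a further match 134 bases before its start, *Egln1*, *Egln2*, *Egln3*, *Bnip3* and *Vegfa* held ACGTG. Matches were listed only where a stretch of 25 bases around them lay within the 250 bases before the start, so some are not shown. These stretches show where listed matches stand, with the motif in capitals, 5′ to 3′ along the gene:
*Hif1a*, chr12:73907787-73907811, plus strand, motif from 70 bases before the start: gctgagagcaACGTGggctggggtg
*Egln1*, chr8:124949308-124949332, minus strand, from 68 bases before: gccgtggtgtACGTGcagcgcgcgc
*Egln2*, chr7:27166836-27166860, minus strand, from 48 bases before: cctcctgtcaACGTGcggttcgcgc
*Egln3*, chr12:54204089-54204113, minus strand, from 229 bases before: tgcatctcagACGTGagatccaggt
*Bnip3*, chr7:138909599-138909623, minus strand, from 107 bases before: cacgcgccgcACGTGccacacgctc
*Vegfa*, chr17:46025360-46025384, minus strand, from 211 bases before: agtgcgtgccCACGTcagagagcaa
In *Vegfa* the capitals are the motif read on the other strand, and the promoter is that of only 1 of its 2 listed starts. The *Bnip3* match and the further *Hif1a* match are part of CACGTG, an E-box that other factors also bind. CACGTG was in 3 of the 12 promoters and in 7.15% of all promoters. Besides those of *Bnip3* and *Hif1a*, these include a promoter of another of the genes, whose match lay outside the stretches listed. A match describes the letters of the promoter and does not show binding.

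The targeted gene matched the labels in every mouse. *Sucnr1* lay at 9.20 ± 0.48 (SD, n = 4) in WT and at 6.15 ± 0.71 (SD, n = 4) in *Sucnr1*-/- mice, without overlap (limma, unadjusted p = 1.71e-05, adjusted p = 0.321 over all genes). The tissue label held, with adipocyte markers such as *Adipoq* at 13.3 in both groups and epididymis markers such as *Adam7* at 4.08 in WT and 3.97 in *Sucnr1*-/- mice. WT mouse 2 stood apart in these, with a mean deviation of 0.41 over 7 epididymis markers against −0.15 to −0.03 in the other mice, and *Lcn8* at 5.96 against 4.39 to 4.65. WT mouse 1 and *Sucnr1*-/- mouse 1 stood apart in 18 immediate early genes, which respond within minutes to handling and stress. Their mean log2 deviation from WT was 0.61 and 0.25 in these mice and −0.62 to −0.05 in the other 6. The same pair had the highest means of 6 neutrophil markers, 0.98 and 1.63, against −0.72 to 0.08. The member results below are given with and without them where they matter.

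None of the 10 HIF pathway genes differed between genotypes beyond the spread between mice. With limma and Benjamini-Hochberg adjustment across the whole array, 0 of 10 passed an adjusted p of 0.05, as did 0% of all genes, and the members' adjusted p ran from 0.719 to 0.965. At an unadjusted p of 0.05 the count was also 0 of 10, where 6.82% of all genes passed (3.46% higher and 3.36% lower in *Sucnr1*-/- mice). In no member did the genotypes separate without overlap, which 4.24% of all genes did. Means were higher in *Sucnr1*-/- mice for 4 of 10 members, against 53.2% of all genes. That count was 7 with arrays centred on their medians and 6 after quantile normalization. The median log2 difference, *Sucnr1*-/- minus WT, was −0.02 over the members and 0.0092 over all genes. Without the first mouse of each genotype the members' median was −0.03, with 0 of 10 called. In bulk tissue, fewer cells of a type and less RNA per cell cannot be told apart.

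**Figure D1:**
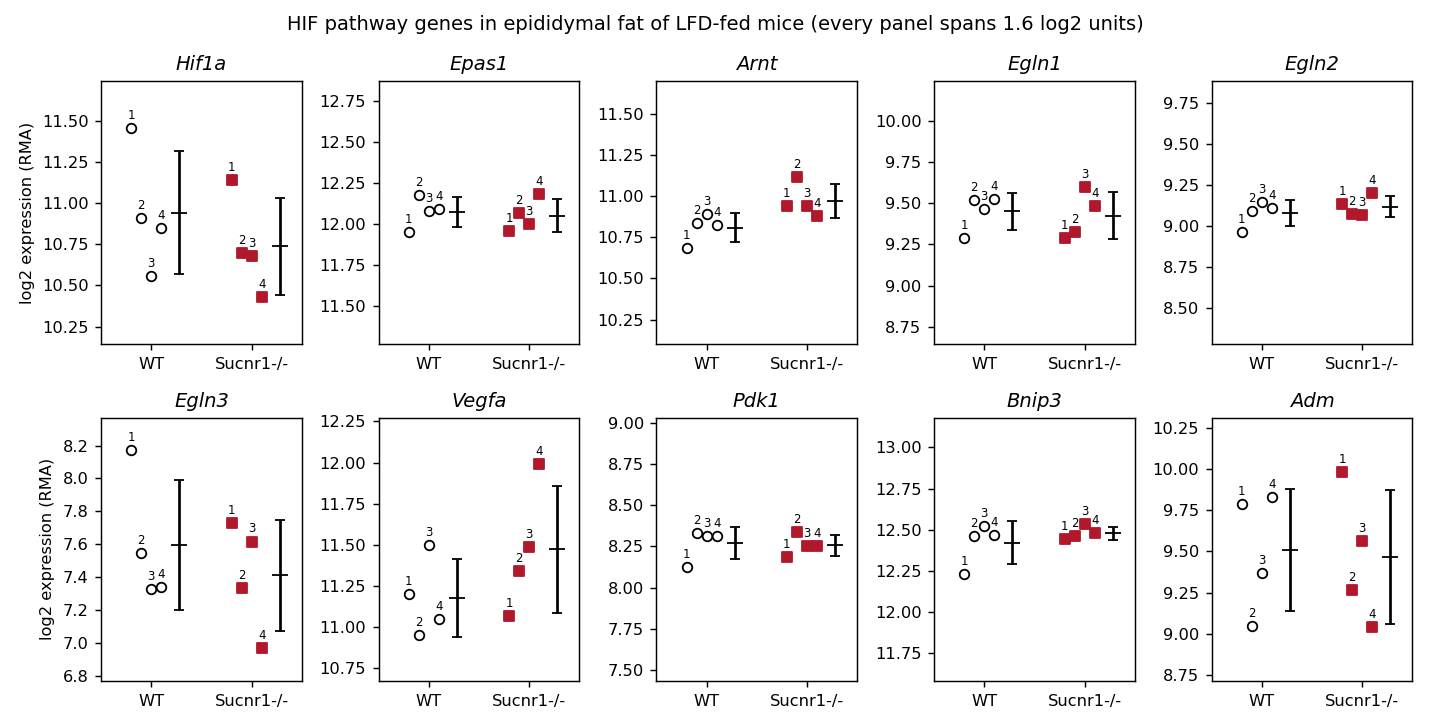
Log2 expression (RMA, vertical axes, each spanning 1.6 log2 units) of the 10 HIF pathway genes, each mouse a point (open circles for WT, red squares for *Sucnr1*-/-, digits for the mouse), with mean and SD beside them. The groups overlap in all 10 panels, and *Hif1a*, *Egln3*, *Vegfa* and *Adm* scatter most between mice.

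No difference between genotypes was detected in the factor's subunits, with *Arnt* closest to one. *Hif1a* lay at 11.45, 10.91, 10.56 and 10.85 in WT mice 1 to 4 and at 11.14, 10.70, 10.68 and 10.43 in *Sucnr1*-/- mice 1 to 4. Mouse 1 was the highest of its genotype in both groups, and the ranges overlapped widely. The log2 difference of *Hif1a* was −0.20 (SE 0.20, limma, adjusted p = 0.802), with a 95% confidence interval of −0.67 to 0.26. It came to −0.17 without the first mouse of each genotype, −0.03 without WT mouse 1 alone and −0.10 without *Sucnr1*-/- mouse 4. Once the fit held the immediate early gene mean as a covariate it was 0.04, and the part of those genes in the scatter of *Hif1a* was not tested. That mean was itself lower in *Sucnr1*-/- mice, at −0.30 relative to WT, so this fit cannot separate it from genotype.

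*Epas1*, the α subunit prominent in endothelium and adipocytes, lay at 11.95, 12.18, 12.08 and 12.09 in WT and at 11.96, 12.07, 12.002 and 12.19 in *Sucnr1*-/- mice. All 8 mice fell within a narrow band, and the lowest mouse of each genotype was mouse 1. *Epas1* differed by −0.02 (log2, SE 0.07, limma, adjusted p = 0.944), or 0.02 with arrays centred on their medians, and its interval ran from −0.19 to 0.15. *Arnt*, the shared β subunit, lay at 10.68, 10.84, 10.89 and 10.82 in WT and at 10.94, 11.12, 10.94 and 10.88 in *Sucnr1*-/- mice. Only WT mouse 3 and *Sucnr1*-/- mouse 4 crossed. The difference of *Arnt* was 0.16 (SE 0.08, interval −0.01 to 0.33, limma, adjusted p = 0.719), with an exact two-sided permutation p of 0.0571, where 4 against 4 mice allow no p below 0.0286. Its unadjusted p of 0.0626 went to 0.0266 with median centring, 0.0466 after quantile normalization, 0.0481 with an intensity-dependent prior and 0.0477 without *Sucnr1*-/- mouse 4, and in no setting did the adjusted p pass.

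For the 3 prolyl hydroxylases, the enzymes that succinate can slow, no difference was detected either. *Egln1* (PHD2), the main oxygen sensor for HIF-1α, lay at 9.29, 9.52, 9.47 and 9.53 in WT and at 9.29, 9.33, 9.60 and 9.48 in *Sucnr1*-/- mice. The first mice of the genotypes shared the lowest level. *Egln1* differed by −0.03 (log2, SE 0.09, limma, adjusted p = 0.943, interval −0.23 to 0.18), or 0.01 with arrays centred on their medians. *Egln2* (PHD1) lay at 8.96, 9.09, 9.15 and 9.11 in WT and at 9.14, 9.07, 9.07 and 9.20 in *Sucnr1*-/- mice. It had the smallest scatter of the 10 genes, with a difference of 0.04 (SE 0.06, limma, adjusted p = 0.877, interval −0.11 to 0.19).

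*Egln3* (PHD3), a hydroxylase that HIF itself induces, scattered more between mice than its relatives. *Egln3* lay at 8.17, 7.55, 7.33 and 7.34 in WT and at 7.73, 7.33, 7.62 and 6.97 in *Sucnr1*-/- mice. As for *Hif1a*, mouse 1 was the highest of each genotype and *Sucnr1*-/- mouse 4 the lowest of all. The log2 difference of *Egln3* was −0.19 (SE 0.22, limma, adjusted p = 0.836, interval −0.69 to 0.32). It was −0.10 without both first mice, 0.0052 without WT mouse 1 alone and −0.04 without *Sucnr1*-/- mouse 4.

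Among the targets, *Vegfa*, the growth factor that recruits vessels, had the largest difference of the 10 genes in size. *Vegfa* lay at 11.20, 10.95, 11.50 and 11.05 in WT and at 11.07, 11.34, 11.49 and 11.99 in *Sucnr1*-/- mice. *Sucnr1*-/- mouse 4 stood above all others, and WT mouse 3 was level with *Sucnr1*-/- mouse 3. The log2 difference of *Vegfa* was 0.30 (SE 0.20, limma, adjusted p = 0.747), with an interval of −0.15 to 0.74, or 0.902-fold to 1.67-fold. It fell to 0.12 without *Sucnr1*-/- mouse 4 and was 0.43 without *Sucnr1*-/- mouse 1, where the unadjusted p was 0.0476. Without both first mice it was 0.44. Markers of endothelium, the main cell type that answers *Vegfa*, had a higher mean in *Sucnr1*-/- mice for 8 of 13 genes, and 0 of them had an unadjusted p under 0.05. WT mouse 2 had the highest endothelial mean of all mice, 0.36. Without it all 13 markers had a higher mean in *Sucnr1*-/- mice, 3 of them at an unadjusted p under 0.05, and the list's median went from 0.02 to 0.13. The endothelial median turned the other way without other WT mice. It was −0.04 without WT mouse 3, with 6 higher and 7 lower, and −0.02 without WT mouse 4, with 5 higher and 8 lower. Without WT mouse 2 the difference of *Vegfa* was 0.22.

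*Pdk1*, the kinase that shuts pyruvate out of the TCA cycle, lay at 8.13, 8.33, 8.31 and 8.31 in WT and at 8.18, 8.34, 8.25 and 8.25 in *Sucnr1*-/- mice. Mouse 1 was the lowest of each genotype, by a wide gap in WT, and the other mice lay close together. *Pdk1* differed by −0.01 (log2, SE 0.07, limma, adjusted p = 0.963, interval −0.17 to 0.14), or 0.02 with arrays centred on their medians. *Adm*, which encodes the vasodilating peptide adrenomedullin, lay at 9.79, 9.05, 9.37 and 9.83 in WT and at 9.98, 9.27, 9.57 and 9.04 in *Sucnr1*-/- mice. Both genotypes spread widely, and each held a mouse near the top and a mouse near the bottom. The difference of *Adm* was −0.04 (SE 0.23, limma, adjusted p = 0.965, interval −0.58 to 0.49), and it ranged from −0.22 to 0.10 as single mice were left out.

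*Bnip3*, a receptor for the removal of mitochondria, had 2 probe sets. The brightest, used by rule, lay at 12.23, 12.46, 12.52 and 12.47 in WT and at 12.45, 12.46, 12.53 and 12.48 in *Sucnr1*-/- mice. By its number this probe set stands between *BC061237* and *Ptger2*, neither on the chromosome of *Bnip3*, while the other stands between *Mapk1ip1* and *Stk32c*, both on it. Whether the brightest measures *Bnip3* or a near-identical copy elsewhere was not tested, and the values above may not be those of *Bnip3*. The other lay at 12.18, 12.42, 12.43 and 12.31 in WT and at 12.32, 12.37, 12.40 and 12.44 in *Sucnr1*-/- mice. In both probe sets WT mouse 1 was the lowest of all mice. *Bnip3* differed by 0.06 (log2, SE 0.08, limma, adjusted p = 0.845, interval −0.11 to 0.23) by the brightest and 0.05 (SE 0.07, adjusted p = 0.873) by the other.

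**Figure D2:**
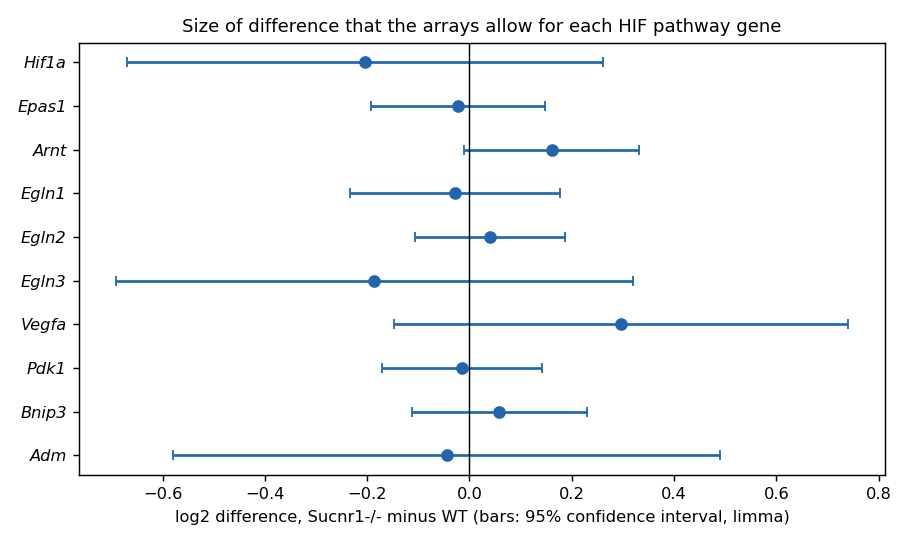
Log2 difference, *Sucnr1*-/- minus WT (horizontal axis), of each HIF pathway gene (rows), points giving the limma estimate and bars its 95% confidence interval. All 10 intervals include 0, and those of *Hif1a*, *Egln3*, *Vegfa* and *Adm* are the widest, from −0.69 at the lowest to 0.74 at the highest.

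The intervals fell into 2 kinds, because the genes varied to different degrees between mice of 1 genotype. *Adm*, *Egln3*, *Hif1a* and *Vegfa* had within-genotype SDs of 0.39, 0.37, 0.34 and 0.32, higher than in 94.4%, 93.6%, 92.1% and 91.2% of all genes. The SDs of *Egln1*, *Bnip3*, *Arnt*, *Epas1*, *Pdk1* and *Egln2* lay between 0.07 and 0.13. For these 6 genes both bounds of the interval lay within 0.33 of 0, the upper bound of *Arnt*. For the 4 variable genes the farther bound reached −0.58 (*Adm*), −0.67 (*Hif1a*), −0.69 (*Egln3*) and 0.74 (*Vegfa*).

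The members were also compared with one another from mouse to mouse. Over deviations from the genotype mean in 8 mice, 23 of the 45 pairs had a Pearson r above 0 and 22 below, and 7 had an exact permutation p under 0.05 before adjustment and 0 after Benjamini-Hochberg over the 45 pairs. The share among pairs of other genes was not computed, so the 7 cannot be called particular to these genes. *Hif1a* and *Egln3* ran together, with r = 0.91 (exact permutation within genotypes, p = 0.00521, adjusted 0.219) and Spearman's rho = 0.905 (p = 0.0139, adjusted 0.378). Leaving out WT mouse 1 and *Sucnr1*-/- mouse 1, the farthest on *Hif1a*, left r = 0.70. *Hif1a* and *Bnip3* ran opposite ways, with r = −0.82 (exact permutation p = 0.0156, adjusted 0.219) and rho = −0.79 (p = 0.0451, adjusted 0.378). Without the same pair of mice r was −0.38, so the relation of *Hif1a* to *Bnip3* rested largely on them. With the other probe set of *Bnip3* r was −0.88 (exact permutation p = 0.00868), or −0.58 without that pair of mice, and rho was −0.69 (p = 0.156). The smallest p that this test allows is 0.00174, neither pair passed the adjustment, and the immediate early genes were highest in the same mice as *Hif1a* and *Egln3*.

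**Figure D3:**
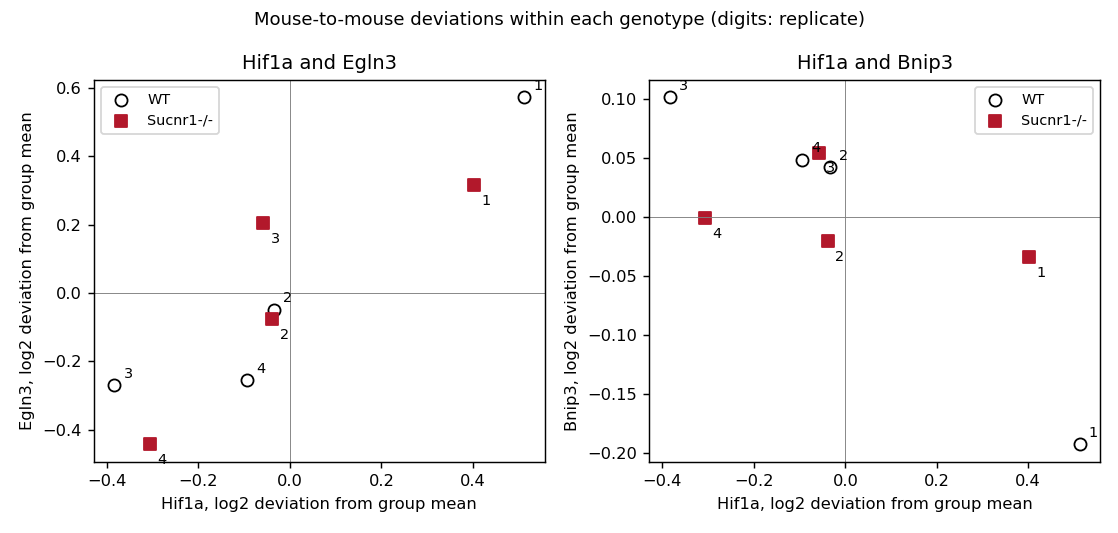
Log2 deviation of *Egln3* (left) and *Bnip3* (right) from the genotype mean (vertical axes) against that of *Hif1a* (horizontal axes), each mouse a point (open circles for WT, red squares for *Sucnr1*-/-, digits for the mouse). Mouse 1 of each genotype lies farthest right in both panels, with *Egln3* at 0.57 and 0.31.

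Beyond the 10 members, 109 of 115 listed genes of the wider pathway were measured, in 5 groups. None passed the adjusted threshold, 54 had a higher and 55 a lower mean in *Sucnr1*-/- mice, and the median log2 difference was −0.00083. At an unadjusted p under 0.05 there were 4 higher and 5 lower. The 9 are close in share to the 6.82% of all genes.  Of 18 other subunits, cofactors and degradation factors 0 passed even unadjusted, with a median of −0.02 (−0.04 to 0.0040 as single mice were left out). The smallest p were those of *Hif3a*, an α subunit that can restrain the others, at 0.59 (SE 0.39), *Eloc*, which links VHL to its ubiquitin ligase, at 0.10 (SE 0.07), and the coactivator *Ep300* at −0.08 (SE 0.07).

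Genes of glucose transport and glycolysis, 25 measured, split into 14 higher and 11 lower with a median of 0.01 (−0.01 to 0.06 as single mice were left out). Of the 25, 4 had an unadjusted p under 0.05, where 6.82% of all genes did. That count ran from 2 to 6 as single mice were left out and was 2 with the immediate early covariate. *Slc16a1*, a monocarboxylate transporter that carries lactate, lay at 10.44, 10.16, 10.45 and 9.91 in WT and at 9.78, 9.50, 9.94 and 9.92 in *Sucnr1*-/- mice. WT mouse 4 alone reached into the range of the other genotype. The difference of *Slc16a1* was −0.46 (SE 0.14, limma, adjusted p = 0.712). The platelet-type phosphofructokinase *Pfkp* was at −0.30 (SE 0.10) and *Pfkfb4*, which sets the level of a phosphofructokinase activator, at −0.26 (SE 0.10). The triose phosphate isomerase *Tpi1* went the other way, at 0.21 (SE 0.08), with all *Sucnr1*-/- mice above all WT mice. None of these 4 passed the adjustment (limma, adjusted p = 0.712 for each).

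Targets of mitochondria, autophagy and growth had a higher mean in *Sucnr1*-/- mice for 17 of 24 genes, where 53.2% of all genes did, with a median of 0.03. This direction turned on 1 mouse. Without WT mouse 1 the group had 8 higher and 16 lower means and a median of −0.02, and with the immediate early covariate 9 higher and 15 lower, also with a median of −0.02. Without the first mouse of each genotype there were 13 higher and 11 lower. *Ndrg1*, a stress-induced gene, lay at 11.25, 11.24, 11.32 and 11.48 in WT and at 11.43, 11.93, 11.50 and 11.64 in *Sucnr1*-/- mice, a difference of 0.31 (SE 0.11, limma, adjusted p = 0.712). *Sap30*, part of a repressor complex, was at −0.51 (SE 0.22) and *Bhlhe41*, a clock-related repressor, at 0.27 (SE 0.12), neither passing the adjustment. Of 109 wider pathway genes 2 were without overlap between genotypes, where 4.24% of all genes were. They were *Tpi1* and the histone demethylase *Kdm3a*. The difference of *Kdm3a* was 0.12 (SE 0.06, limma, adjusted p = 0.724), and it was singled out after its values were seen. Its WT mice reached 8.41 and its *Sucnr1*-/- mice started at 8.44.

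Matrix targets, enzymes that hydroxylate and cross-link collagen among them, had the lowest median of the 5 groups. Of 13 genes 9 had a lower mean, the median was −0.23, and 0 had an unadjusted p under 0.05. *Plod2*, a collagen lysyl hydroxylase, was at −0.36 (SE 0.16), the lysyl oxidase relative *Loxl1* at −0.23 (SE 0.11) and the membrane metalloproteinase *Mmp14* at −0.26 (SE 0.14). The group's per-mouse means were 0.18, 0.03, −0.11 and −0.10 in WT and −0.12, −0.23, −0.14 and −0.14 in *Sucnr1*-/- mice. WT mouse 1 stood highest, and WT mice 3 and 4 were close to the other genotype. The group's median was −0.10 without WT mouse 1 and −0.12 without the first mouse of each genotype. Stromal progenitor markers had lower means for 7 of 10 genes in the same comparison, with a median of −0.08 (−0.10 to −0.01 as single mice were left out) and group means per mouse of −0.18 to 0.21 in WT and −0.11 to −0.02 in *Sucnr1*-/- mice. Their part in the matrix values was not tested.

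**Figure D4:**
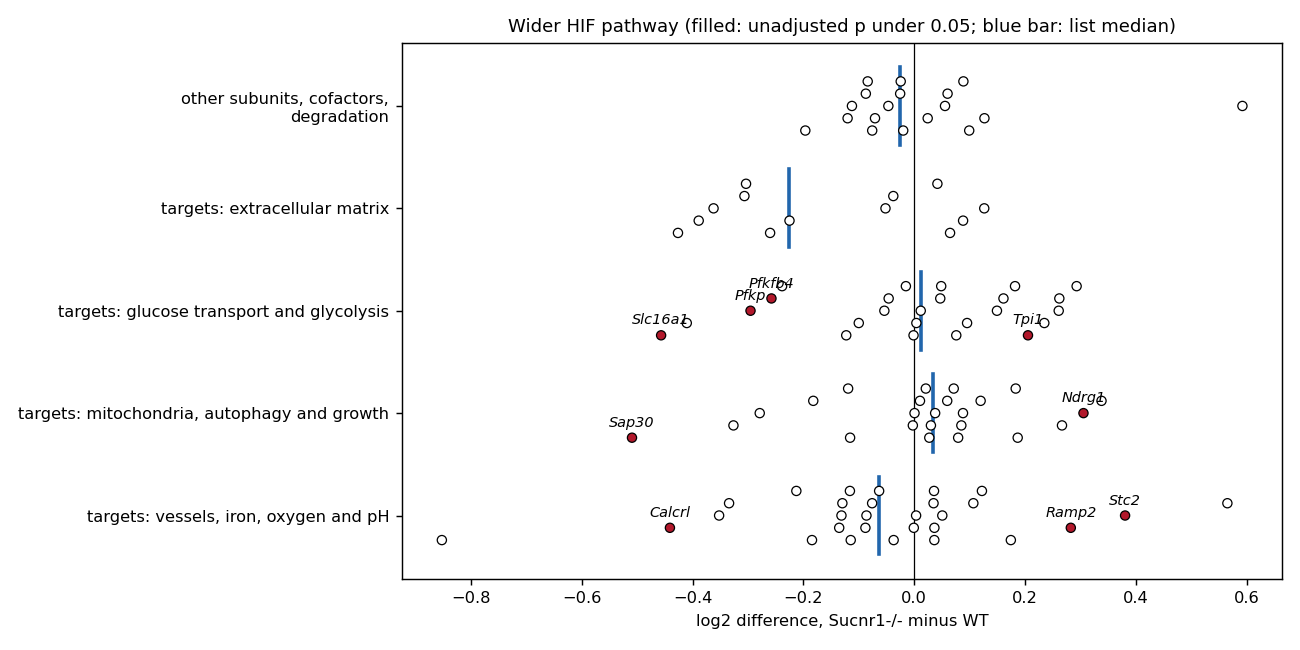
Log2 difference, *Sucnr1*-/- minus WT (horizontal axis), of 109 wider HIF pathway genes, 1 point per gene, in 5 groups (rows, scattered vertically for sight only), filled and named where the unadjusted p was under 0.05. Blue bars are group medians, lowest for the matrix targets at −0.23, and no gene passed the adjusted threshold.

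Of 29 targets that act on vessels, iron, oxygen and pH, 12 were higher and 17 lower in mean, with a median of −0.06 (−0.07 to −0.03 as single mice were left out), and the genes of smallest p included both parts of the receptor for adrenomedullin, the product of *Adm*. *Calcrl*, the receptor chain, lay at 9.41, 9.40, 8.88 and 8.94 in WT and at 8.91, 8.76, 8.67 and 8.52 in *Sucnr1*-/- mice. WT mouse 3 and *Sucnr1*-/- mouse 1 were the only mice to cross. The log2 difference of *Calcrl* was −0.44 (SE 0.15, interval −0.77 to −0.11, limma, unadjusted p = 0.0148, adjusted p = 0.712), between −0.53 and −0.36 without single mice and −0.42 without the first mouse of each genotype.

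*Ramp2*, the partner that gives *Calcrl* its affinity for adrenomedullin, lay at 9.27, 9.62, 9.64 and 9.75 in WT and at 9.74, 9.86, 9.76 and 10.05 in *Sucnr1*-/- mice. Here too 1 mouse of each genotype crossed, WT mouse 4 and *Sucnr1*-/- mouse 1. The difference of *Ramp2* was 0.28 (SE 0.12, limma, unadjusted p = 0.0397, adjusted p = 0.713), opposite in sign to that of *Calcrl*. It was 0.18 without WT mouse 1 and 0.12 with the mean of its 2 probe sets, where the unadjusted p was 0.247. A mean that low requires a small negative difference in the other probe set, which was not fitted alone. The sign given for *Ramp2* is therefore that of its brightest probe set. *Stc2*, a secreted glycoprotein, was at 0.38 (SE 0.16, limma, adjusted p = 0.715). The interval of *Adm*, −0.58 to 0.49, includes the differences of both receptor genes. Both receptor genes are strong in endothelium, whose 13 markers had per-mouse means of −0.17 to 0.36 in WT and −0.06 to 0.16 in *Sucnr1*-/- mice, which overlapped.

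**Figure D5:**
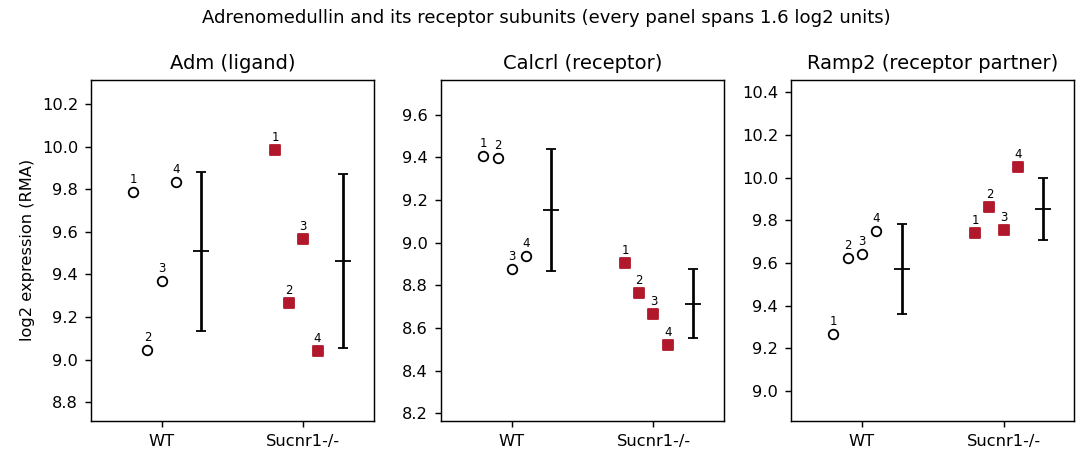
Log2 expression (RMA, vertical axes, each spanning 1.6 log2 units) of *Adm*, *Calcrl* and *Ramp2*, each mouse a point (open circles for WT, red squares for *Sucnr1*-/-, digits for the mouse), with mean and SD. The *Sucnr1*-/- minus WT mean is −0.44 for *Calcrl* and 0.28 for *Ramp2* (brightest probe set), with 1 mouse of each genotype crossing, and *Adm* overlaps fully.

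The macrophage markers of the same tissue were also read. Of 16 macrophage markers 14 had a lower mean in *Sucnr1*-/- mice, with a median of −0.34, and 0 passed the adjustment. At an unadjusted p under 0.05 there were 5 lower and 1 higher, where 6.82% of all genes passed. Those 6 became 11 without *Sucnr1*-/- mouse 1, or without the first mouse of each genotype, 4 without WT mouse 1 and 3 without *Sucnr1*-/- mouse 2. The mean of the list per mouse ran from −0.14 to 0.23 in WT and from −0.46 to −0.12 in *Sucnr1*-/- mice, with only WT mouse 4 and *Sucnr1*-/- mouse 1 crossing. *Cd68* was at 11.7 and 11.2 and *Csf1r* at 10.8 and 10.6 in the WT and *Sucnr1*-/- means, and the dimmest of the list, *Aif1*, at 6.07 and 5.71. *Adgre1*, which encodes F4/80, was at −0.50 (SE 0.15), and the efferocytosis receptor *Mertk*, opposite to the list, at 0.44 (SE 0.12), neither passing the adjustment (limma, adjusted p = 0.712 for both). Macrophages express *Hif1a* and several glycolytic targets, and the part of their number in the values of *Hif1a*, *Slc16a1* or *Pfkp* was not tested.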

How the data were processed

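Epididymal adipose tissue RNA of 4 WT and 4 *Sucnr1*-/- mice, separate animals by their labels, was hybridised to 1 Affymetrix Mouse Gene ST array each. The deposited log2 values were made by the authors with RMA (version, genome build and scan dates not given in the sources used here), which equalises the arrays and compresses low values, so array depth and background cannot be read from them. The number of arrays limits precision. Of 35556 probe sets, 21218 with exactly 1 symbol were kept and 21185 matched to RefSeq GRCm38.p6 by Entrez ID; the brightest probe set stood for a gene. Genotypes were compared over all 18820 genes with limma 3.58.1 in R 4.3.3, with Benjamini-Hochberg adjustment, and the step was tested on simulated data. Alternatives were other priors, array weights, median centring, quantile normalization, a filter on the dimmest 40% of genes, mean probe sets, a replicate block, an immediate early gene covariate, a t-test and leaving out mice. Standard errors and intervals are limma's. Single values and pairs were tested by exact two-sided permutation (70 ways for genotype, 576 for pairs).

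Members, gene lists and alternatives were chosen with earlier results of these data known. The text names all members, *Sucnr1*, wider pathway genes at an unadjusted p under 0.05 or else the 3 of smallest p per group, the 2 pairs of smallest p and the 2 macrophage markers of smallest p, with others used as examples. A list gene was taken by synonym in 3 cases. Marker lists also covered pericytes, mesothelium, lymphocytes, mast cells, erythrocytes and muscle. Their values stand under other observations. Figures used matplotlib 3.10.9 in Python 3.11.15.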

Additional observations from a re-analysis of the deposited data

Results flagged for a closer look

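Within groups of 4 mice, the highest or lowest mouse was compared with the rest for 26 genes in 2 genotypes, 52 groups in all, and 2 groups held a mouse whose gap to its nearest neighbour exceeded the 95% limit of Dixon's test as a share of the group's range. Chance gives about 1 in 20 such groups. *Pdk1* was at 8.13 in WT mouse 1, below 8.31 to 8.33 in the other WT mice. *Loxl1* was at 8.97 in *Sucnr1*-/- mouse 3, above 8.83 to 8.85 in the others of its genotype.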

How the results depend on the processing

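No member, no wider pathway gene and no gene on the arrays passed an adjusted p of 0.05 under any of 11 planned settings, 10 of them in limma, or in 8 limma fits without 1 mouse. The methods' t-test gave 0 members, 8 wider pathway genes and 1247 genes overall at an unadjusted p under 0.05, and 0 of each after Benjamini-Hochberg adjustment. The count of members at an unadjusted p under 0.05 went from 0 to 1 with an intensity-dependent prior, median centring or quantile normalization (*Arnt* each time), and lay between 0 and 1 without single mice, being 1 without *Sucnr1*-/- mouse 1 (*Vegfa*) or 4 (*Arnt*). The count over the wider pathway, 9, was 3 once the immediate early gene mean, itself lower in *Sucnr1*-/- mice, entered as a covariate. It ranged from 5 (without WT mouse 1 or *Sucnr1*-/- mouse 2) to 15 (without WT mouse 4). With the replicate number as a block it was 21. Same-numbered mice of the 2 genotypes had correlations of 0.45, 0.14, 0.11 and 0.01 in their deviations, and 2 of 4 WT mice matched their own number best. This does not settle whether same-numbered mice were handled together, and the main fit did not use the number. The block called no member. Over all genes 1284 passed unadjusted, but 808 without *Sucnr1*-/- mouse 2.

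Small differences changed sign. With median centring *Epas1* was at 0.017, *Egln1* at 0.012 and *Pdk1* at 0.025. After quantile normalization *Egln1* was at 0.0083 and *Pdk1* at 0.024. With array weights *Adm* was at 0.015. Without the first mouse of each genotype *Egln2* was at −0.0040. With the covariate *Hif1a* was at 0.036, *Egln3* at 0.053 and *Adm* at 0.17. Without single mice the differences ran from −0.067 to 0.011 for *Epas1*, −0.086 to 0.017 for *Egln1*, −0.29 to 0.0052 for *Egln3*, −0.063 to 0.0099 for *Pdk1*, −0.0058 to 0.092 for *Bnip3* and −0.22 to 0.096 for *Adm*. The cause was not tested. *Arnt*, *Vegfa*, *Sucnr1* and the wider pathway genes named by rule kept their sign in every setting run, except that *Hif3a*, among the dimmest 40% of genes, was absent from the fit without those. The other probe set of *Ramp2*, whose difference must be negative given the mean of both, was not fitted alone in any setting. The other probe set of *Bnip3* was added after seeing the data, for its difference and for its relation to *Hif1a*.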

Other observations

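Within genotypes 13 wider pathway genes varied more between mice than any member, a group singled out after its values were seen. Mouse 1 was the highest of both genotypes in 6 of them, *Hmox1*, *Plaur*, *Slc2a1*, *Ak4*, *Loxl4* and *Slc16a3*, as in *Hif1a* and *Egln3*. It was not in the other 7, *Igfbp3*, *Ddit4*, *Hif3a*, *Ccn2*, *Cxcr4*, *Slc40a1* and *Vhl*. *Slc2a1*, the basal glucose transporter GLUT1 and a classical HIF target, lay at 10.77, 10.24, 9.24 and 9.93 in WT mice 1 to 4 and at 10.52, 9.36, 9.48 and 9.18 in *Sucnr1*-/- mice 1 to 4. *Ak4*, a mitochondrial adenylate kinase, lay at 8.27, 7.28, 6.43 and 7.31 in WT and at 7.40, 6.76, 7.05 and 6.78 in *Sucnr1*-/- mice. *Hmox1*, the haem-degrading enzyme, lay at 11.83, 11.35, 10.54 and 11.16 in WT and at 12.57, 10.21, 11.66 and 10.17 in *Sucnr1*-/- mice. *Ddit4*, an inhibitor of mTORC1 signalling, ran differently, at 7.54, 7.83, 8.59 and 8.57 in WT and at 7.82, 7.54, 8.59 and 9.32 in *Sucnr1*-/- mice, with WT mouse 1 the lowest of its genotype. *Igfbp3*, a binding protein for insulin-like growth factors, had the largest difference in size of the wider pathway, at −0.85 (SE 0.45, limma, adjusted p = 0.727), with the genotypes overlapping.

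Markers of some lymphoid and mast cells had lower means in *Sucnr1*-/- mice. Of 7 mast cell markers all 7 had a lower mean and 5 did not overlap between genotypes, where 4.24% of all genes did not. The mast cell median log2 difference, *Sucnr1*-/- minus WT, was −0.36 and stayed between −0.41 and −0.31 as single mice were left out. The medians of 8 T cell markers, −0.39 (−0.56 to −0.23), 6 B cell markers, −0.89 (−1.12 to −0.41), 14 adipocyte markers, 0.07 (0.02 to 0.10), and 18 immediate early genes, −0.24 (−0.51 to −0.12), kept their sign, with the value nearest 0 each time without WT mouse 1. Other medians turned with single mice. That of 6 neutrophil markers was 0.16 but −0.34 without *Sucnr1*-/- mouse 1, and that of 8 mesothelial markers was −0.18 but 0.07 without the same mouse. Without WT mouse 2 the median of 7 epididymis markers went from −0.11 to 0.08, that of 2 erythrocyte markers from −0.04 to 0.15 and that of 10 pericyte and smooth muscle markers from 0.0080 to 0.29. For 7 skeletal muscle markers the median was −0.02 (−0.04 to 0.0078). None of these lists held a gene that passed limma's adjusted threshold.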
